A study of Bos taurus with 8 samples.

Results

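The miscellaneous noncoding RNAs of the cow liver were taken as all genes that the count table gives the biotype misc_RNA. They make up 175 of its 24616 genes and carry 10 names: Y RNA (17 genes), 7SK (117), nuclear RNase P (4), vault (8), Metazoa SRP (23), RNase MRP (1), Telomerase-vert (2), CPEB3 ribozyme (1), NRON (1) and HAR1A (1). Genes of the same name were kept apart by their Ensembl ID. Their counts come from small RNA libraries of the liver of 8 lactating Holstein Friesian cows, 1 library per cow, killed approximately 14 days postpartum. The 4 cows in mild negative energy balance (MNEB, libraries 2M, 3M, 4M and 5M) had free access to grass silage, received 8 kg of concentrate per day and were milked 1 time daily. The other 4 cows, in severe negative energy balance (SNEB), gave libraries 7S, 8S, 9S and 10S. Their ration was 25 kg of silage with 4 kg of concentrate per day, and milking took place 3 times daily. All were intact animals of a single breed that differed by diet and milking at the same time, so the effects of diet and of milking cannot be told apart.

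Most RNAs of this group are made by RNA polymerase III and work as the RNA part of a protein complex. Y RNAs are short stem-loop RNAs bound by the proteins Ro60 (gene TROVE2 in these files) and La (SSB). They take part in RNA quality control and in the start of DNA replication, and they are known for being cut into stable small fragments in stressed or dying cells. 7SK holds the transcription elongation kinase CDK9 in an inactive complex. RNase P trims the leader of precursor tRNAs, and the related RNase MRP cuts precursor ribosomal RNA. Vault RNA belongs to the large vault particle, SRP RNA is the scaffold of the signal recognition particle that brings secreted proteins to the endoplasmic reticulum, and telomerase RNA is the template of telomerase. CPEB3 ribozyme is a self-cleaving sequence in an intron, while NRON and HAR1A are long noncoding RNAs. The reads of a small RNA library are short, so the values are counts of short reads placed on these genes. Counts were not divided by gene length. A comparison between genes is one of reads, not of molecules.

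Library 2M has 2 labels that disagree. Its title and the tables of the study place it in MNEB. Its treatment label and the design text deposited with the series place it in SNEB. It was analysed as MNEB, and the main comparisons are also given with 2M in SNEB. Gene counts per library ranged from 21617227 to 33963761, and miRNA genes held 98.7% to 99.5% of them. miR-122, the dominant hepatocyte miRNA, and the 4 other hepatocyte markers examined were detected, and their summed level was 740847 to 938079 RPM (counts per 1000000 counts of all genes). The most similar 2 libraries of a group, 7S and 10S, still had a chi-square of 17.3 per degree of freedom, well above sampling noise, and no library was counted as a repeat of another.

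The whole group was a small part of the libraries. It held 41818 of 207883876 counts, or 0.0209% ± 0.0144 (SD, n = 8) of the counts per library. At least 1 read was found for 60 of the 175 genes, and the other 115 were at 0 in every library. A count of 0 allows up to 3 counts, which is 0.0883 to 0.139 RPM depending on the library. Each library held reads of 18 to 33 of the genes, with 18 in 3M and 33 in 4M. Reads were found in every library for 11 genes. Of the 60 genes with reads, 44 had 10 counts or fewer over all libraries together.

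Reads were concentrated on a few genes. ENSBTAG00000043461, a Y RNA and the leading gene, held 60.2% of all misc_RNA counts, and a further Y RNA, ENSBTAG00000043936, held 21.9%. With the 7SK gene ENSBTAG00000043250 at 9.63%, these 3 genes took 91.7%. By its mean RPM the leading Y RNA ranked 60 among all genes and 10 among the 23463 genes that are not miRNA genes. It was thus among the most read fragments outside the miRNAs.

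Within a repeated name nearly all reads fell on 1 or a few genes. A single gene took 97.9% of the 4114 counts of 7SK, and the other 27 7SK genes with reads shared 88 counts. Nuclear RNase P had 99.7% of its 1203 counts on ENSBTAG00000044427. All 735 vault counts fell on ENSBTAG00000028358, with the other 7 vault genes at 0. Metazoa SRP was spread more widely, with 57.2% of its 533 counts on its leading gene. RNase MRP, with its only gene, had 71 counts, and telomerase RNA had 21, all on 1 of its 2 genes. CPEB3 ribozyme, NRON and HAR1A had 0 counts. The 4 other multi-copy RNA families examined had smaller shares on their leading gene. The leading gene took 9.48% of the 232 counts of U6, which has 974 genes, and 11.6% of the 735 counts of 5S rRNA. For U1 it took 35.4% of 339 counts and for U2 43.6% of 463 counts. U1, U2 and U6 are spliceosomal RNAs. Reads that align to more than 1 place were not counted, so a family of near-identical copies loses reads and the values of single copies are uncertain.

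**Figure D1:**
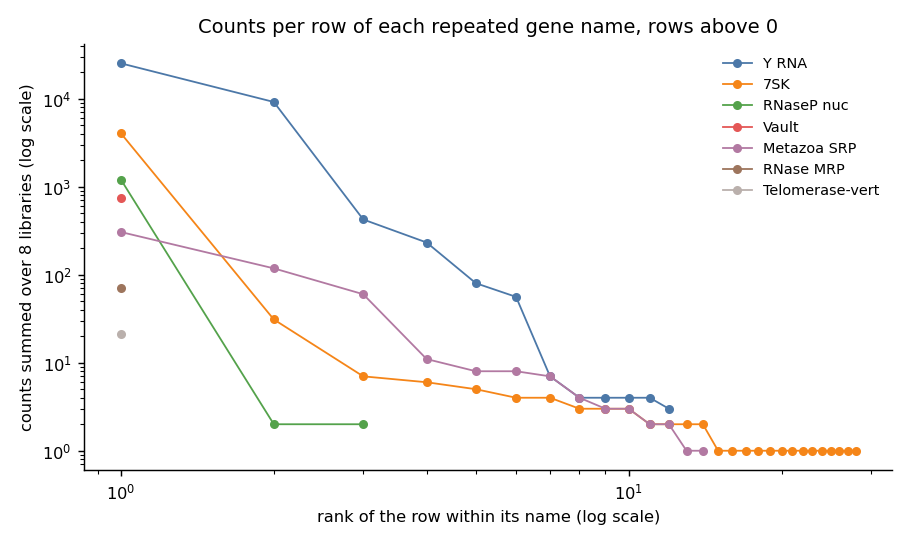
Counts of each misc_RNA gene with at least 1 read, summed over the 8 libraries (y axis, log scale), against its rank within its gene name (x axis, log scale), with 1 line per name. The leading 7SK gene has 4026 counts and the next 31, while Y RNA has 25163 and 9160 on its leading genes.

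Y RNA was the largest class in every library, with 81.2% ± 10.2 (SD, n = 8) of the misc_RNA counts. Its lowest share was 61.0% in library 4M and its highest 95.6% in library 9S. 7SK followed with 12.2% ± 8.56, from 1.73% in 9S to 27.9% in 4M. RNase P held 1.52% to 4.93% and vault 0.675% to 5.59%. Metazoa SRP reached 4.82% in library 7S and lay between 0.264% and 1.22% in the other libraries. Library 4M stood out by its 7SK and vault reads, 9S by its Y RNA reads and 7S by its SRP reads.

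**Figure D2:**
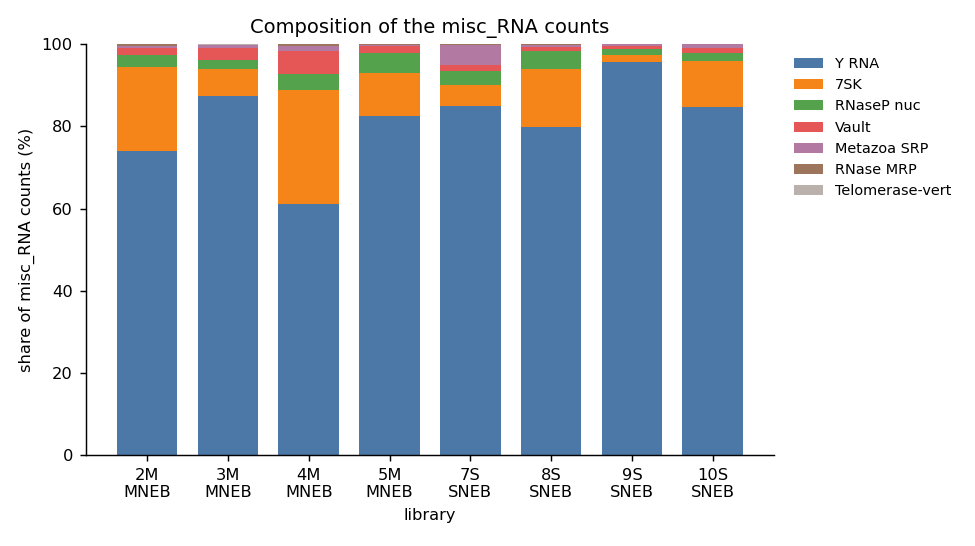
Share of the misc_RNA counts held by each gene name (y axis, percent) in each of the 8 libraries (x axis, MNEB then SNEB). Y RNA fills 61.0% to 95.6% of every bar, and 7SK is widest in library 4M at 27.9%.

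The summed level of all misc_RNA genes was compared between the groups first. It was 106, 91.2, 206 and 100.3 RPM in the MNEB libraries 2M, 3M, 4M and 5M, and 309, 203, 516 and 144 RPM in the SNEB libraries 7S, 8S, 9S and 10S. The means were 126 ± 53.6 RPM in MNEB and 293 ± 164 RPM in SNEB (SD, n = 4 each), 2.33 times as high in SNEB. The groups overlapped, since 4M lay above 8S and 10S. Most of the difference lay in the leading Y RNA. On log2 of RPM the difference of the sums was 1.14 (2.20-fold), and without that gene it was 0.32 (1.24-fold). It was 0.82 (1.77-fold) with 2M in SNEB and 0.81 (1.75-fold) without 9S. In the bulk tissue fewer cells of a type and less RNA per cell cannot be told apart. The other noncoding biotypes also overlapped. The snoRNAs, which guide modification of ribosomal RNA, stood at 1808 ± 413 RPM in MNEB and 2262 ± 313 RPM in SNEB, and the spliceosomal snRNAs at 13.6 ± 13.7 and 11.9 ± 6.25 RPM (SD, n = 4 each). Mitochondrial ribosomal RNA stood at 651 ± 285 RPM in MNEB and 1041 ± 234 RPM in SNEB, 1.60 times as high, and mitochondrial tRNA at 488 ± 175 and 332 ± 163 RPM, 0.681 times as high (SD, n = 4 each). Their part in the misc_RNA values was not tested.

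SNEB was then compared with MNEB gene by gene, with edgeR's quasi-likelihood test and trimmed mean of M-values (TMM) scaling. The test was fitted over the 2827 genes of all biotypes that had at least 80 counts over the 8 libraries, and p-values were adjusted by the Benjamini-Hochberg method over all of them. Of the 175 misc_RNA genes 10 reached this count, and they held 99.1% of the misc_RNA counts. The last gene inside had 80 counts and the first outside, RNase MRP, had 71. The 10 genes are 5 Y RNAs, 2 Metazoa SRP genes and 1 gene each of 7SK, RNase P and vault. None of the 10 passed an adjusted p under 0.05, against 0.0707% of all genes tested. At an unadjusted p under 0.05 there were 2 of 10, both higher in SNEB, the leading Y RNA and the Metazoa SRP gene ENSBTAG00000047359. Of all genes 4.7% were higher at this p, 6.76% were lower, and 11.5% differed in either direction. DESeq2 gave no p for the 2 Metazoa SRP genes and called 0 of the other 8, against 2.45% of all genes, with 1 of the 8 at an unadjusted p under 0.05, against 13.7%. Limma voom called 0 of the 10, against 0.0354%, with 1 at an unadjusted p under 0.05, against 9.98%. The exact test of edgeR called 0 of the 10, against 1.87%, with 2 at an unadjusted p under 0.05, against 11.5%. With 2M in SNEB the smallest p of the 10 in the quasi-likelihood test was that of ENSBTAG00000047359 (unadjusted p = 0.0697, adjusted p = 0.469). The share of all genes called was not taken in that fit. Of the 10 genes 6 had a log2 fold change above 0 and 4 below, where 45.8% of all genes were above 0. The median was 0.68 in the 10 genes and -0.05 over all genes. ENSBTAG00000042927, ENSBTAG00000045661 and ENSBTAG00000047359, all above 0, had 17, 20 and 36 counts in MNEB and 63, 98 and 269 in SNEB. Most of these lay in 7S, so the genes reached 80 counts through the group where they were high. Their sign, and with it the 6 and the median, thus partly follows from the filter. Without 7S ENSBTAG00000042927, ENSBTAG00000045661 and ENSBTAG00000043492 turned to -0.69, -0.86 and -0.07. Without scaling the median of all genes was 0.18 higher on the log2 scale.

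**Figure D3:**
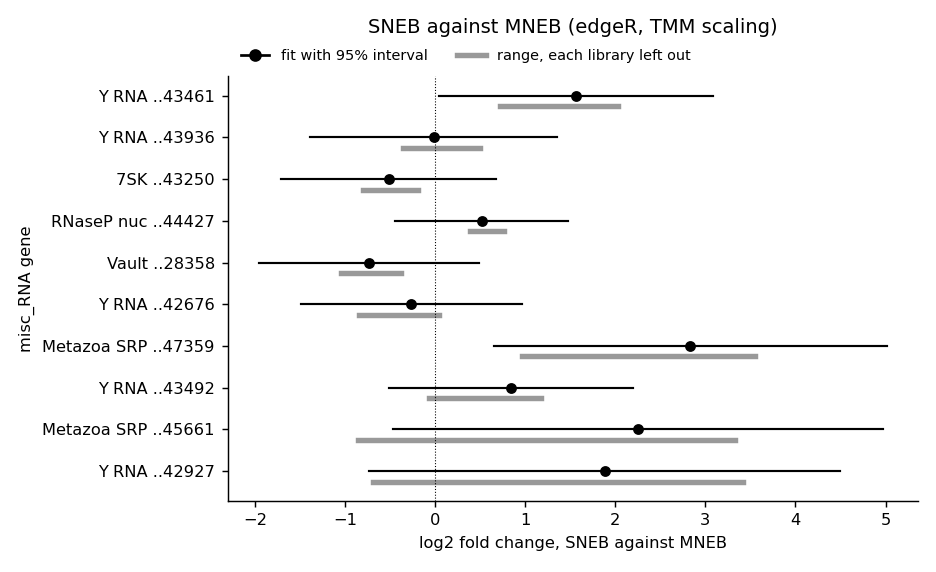
Log2 fold change of SNEB against MNEB (x axis) for the 10 fitted misc_RNA genes (y axis, name and last digits of the Ensembl ID), with the 95% interval of the fit as a black line and the range of fits with each library left out in turn as a grey bar. The intervals of the leading Y RNA (1.57) and of the leading Metazoa SRP gene (2.83) lie above 0 before adjustment, and 5 of the grey bars cross 0.

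The leading Y RNA was higher in every SNEB library than in every MNEB library. It stood at 43.6, 43.5, 58.6 and 54.8 RPM in 2M, 3M, 4M and 5M, and at 148, 124, 431 and 99.1 RPM in 7S, 8S, 9S and 10S. The MNEB libraries lay close together and library 9S lay far above the other SNEB libraries. The group means were 50.1 ± 7.72 RPM in MNEB and 201 ± 155 RPM in SNEB (SD, n = 4 each). The 95% Wilson interval of the level in any library reached at most 8.27 RPM to either side, for counting error only. It was the only one of the 10 genes whose groups did not overlap in this direction, against 2.76% of all genes tested. In the fit across all genes its log2 fold change was 1.57 (standard error 0.70, interval 0.05 to 3.09), which is 2.96-fold higher in SNEB, and it did not pass (unadjusted p = 0.0443, Benjamini-Hochberg adjusted p = 0.413, edgeR's quasi-likelihood test; 0.133 to 0.742 over the alternatives). On log2 of RPM the difference was 1.75. Its two-sided exact permutation p over 70 assignments was 0.0286, the smallest that 4 against 4 libraries allow. This test was added after the levels had been seen not to overlap, so its p restates that order and adds nothing to it, and it is not adjusted for other genes.

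The size of this difference depended on library 9S. Without 9S the fitted log2 fold change was 0.72 (adjusted p = 0.739, edgeR's quasi-likelihood test), and on log2 of RPM the difference was 1.30. Without 2M or without 3M the groups still did not overlap, and the exact permutation p, now over 35 assignments, was 0.0571. With 2M in SNEB the groups overlapped, because 2M had one of the lowest levels of all libraries. The log2 fold change was then 1.33 (adjusted p = 0.569, edgeR's quasi-likelihood test) and the exact permutation p on log2 of RPM was 0.107.

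The choice of denominator was examined because miRNA reads fill nearly all of each library. Per 1000000 counts of genes other than miRNA genes, the leading Y RNA stood at 5859, 8840, 4572 and 5223 in 2M, 3M, 4M and 5M and at 13427, 11993, 44058 and 10890 in 7S, 8S, 9S and 10S. Per 1000000 counts of snoRNA genes the values were 18642, 25544, 31712 and 40758 in MNEB and 55961, 58490, 224014 and 42238 in SNEB, in the same order of libraries. The groups did not overlap with either denominator, although 5M and 10S lay close together in the second (the exact permutation p of 0.0286 for each restates this order). With TMM-scaled library sizes they overlapped. With this scaling 0 of the 10 genes had every SNEB library above every MNEB library, against 3.15% of all genes. Library 3M then stood at 115, level with 7S and above 8S and 10S, and the p was 0.114 (two-sided exact permutation test). The TMM factor was 0.379 in 3M and 1.79 in 4M, where fragments of protein-coding genes made up 1915 and 9280 RPM. In the other libraries these made up 3771 to 8268 RPM.

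**Figure D4:**
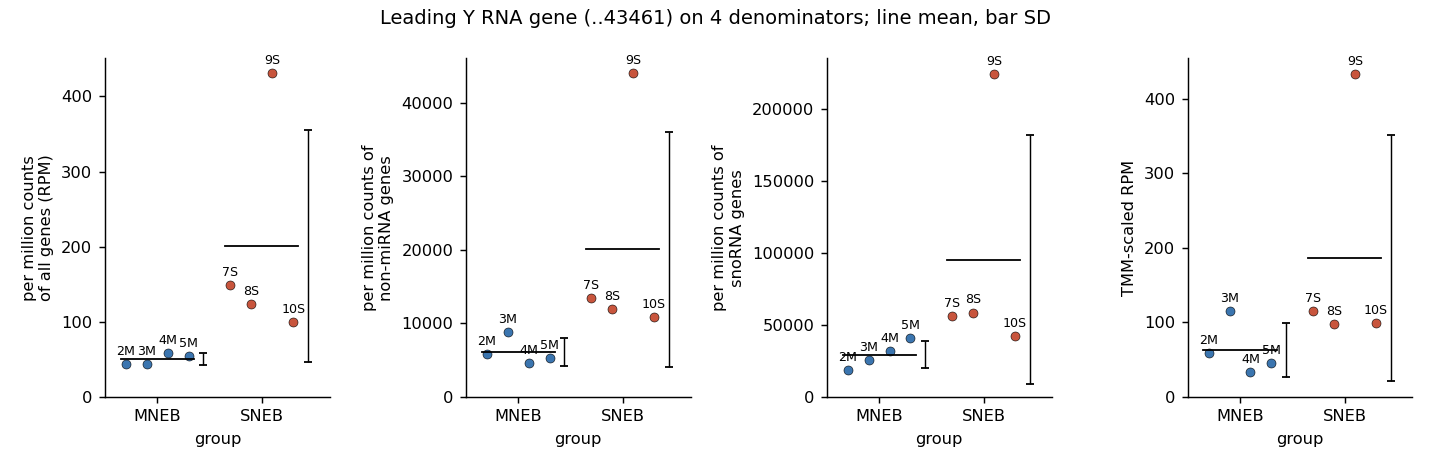
Level of the leading Y RNA gene in each library (points, with the library's name), by group (x axis), per 1000000 counts of all genes, of non-miRNA genes, of snoRNA genes, and as TMM-scaled RPM (y axes, linear from 0); lines are group means and bars are 1 SD of 4 libraries. Every SNEB library lies above every MNEB library in 3 panels, and library 3M at 115 lies among the SNEB libraries in the TMM panel.

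The next Y RNA, ENSBTAG00000043936, did not share this pattern. Its level was 33.3, 34.0, 60.2 and 24.5 RPM in 2M, 3M, 4M and 5M and 102, 36.0, 58.6 and 20.6 RPM in 7S, 8S, 9S and 10S. The groups overlapped, with the highest and the lowest library both in SNEB by RPM, while 3M of MNEB was highest by TMM-scaled RPM. By edgeR's quasi-likelihood test it differed by -0.02 on the log2 scale, with an interval from -1.39 to 1.36 (adjusted p = 0.996), and the sign turned with the scaling, to 0.51 without scaling. Reads of the leading Y RNA per read of this one were 1.31, 1.28, 0.973 and 2.23 in the MNEB libraries and 1.46, 3.44, 7.36 and 4.81 in the SNEB libraries, in the same order. This ratio does not depend on the scaling of libraries. It overlapped between the groups through 5M and 7S, and its log2 difference of 1.40 had an exact two-sided permutation p of 0.0571, and with a library left out it ranged from 1.07 without 9S to 1.84 without 7S (exact permutation p = 0.143 and 0.0286). With 2M in SNEB it was 1.08 (exact permutation p = 0.179). The test of this ratio was also added after seeing the data. Library 4M was the only one in which this gene, at 1388 counts, was ahead of the leading one, at 1350. The share of the leading Y RNA in the misc_RNA counts was 28.5% to 54.6% in MNEB and 48.0% to 83.5% in SNEB, a difference of 22.5 percentage points (two-sided exact permutation test, p = 0.0571). With a library left out it ranged from 16.4 without 9S to 28.3 without 7S (exact permutation p = 0.114 and 0.0286), and with 2M in SNEB it was 16.96 (exact permutation p = 0.196). In a single library the half-width of its 95% Wilson interval was 1.97 percentage points or less.

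The minor Y RNAs were read far less. ENSBTAG00000042676 stood at 2.08 ± 1.34 RPM in MNEB and 2.10 ± 1.81 RPM in SNEB (SD, n = 4 each), and -0.26 ± 0.56 (standard error) on the log2 scale in the fit. ENSBTAG00000043492 ranged from 0.438 to 1.43 RPM in MNEB and from 0.456 to 4.39 RPM in SNEB. ENSBTAG00000042927 had 0, 3, 14 and 0 counts in 2M, 3M, 4M and 5M and 55, 5, 2 and 1 counts in 7S, 8S, 9S and 10S. These 3 genes were each highest in library 7S, and within MNEB in library 4M. ENSBTAG00000045068 had 4 to 16 counts per library, and 6 further Y RNAs had reads, none of them more than 7 in all. Summed over its 17 genes, Y RNA stood at 91.6 ± 22.7 RPM in MNEB and 260 ± 167 RPM in SNEB (SD, n = 4 each), with 4M at 125 and 10S at 122 RPM as the libraries that overlapped. When genes of the same name were summed over the whole table before the fit, chosen after seeing the data, edgeR's quasi-likelihood test gave 1.06 ± 0.67 (standard error) for Y RNA on the log2 scale (adjusted p = 0.593). Without 9S it was 0.40 (adjusted p = 0.870, edgeR), and with 2M in SNEB 0.86 (adjusted p = 0.726, edgeR). In that fit 0 of the 5 classes tested passed an adjusted p under 0.05, against 0.0709% of all entries, and 1 of 5, Metazoa SRP, had an unadjusted p under 0.05, against 11.5%.

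**Figure D5:**
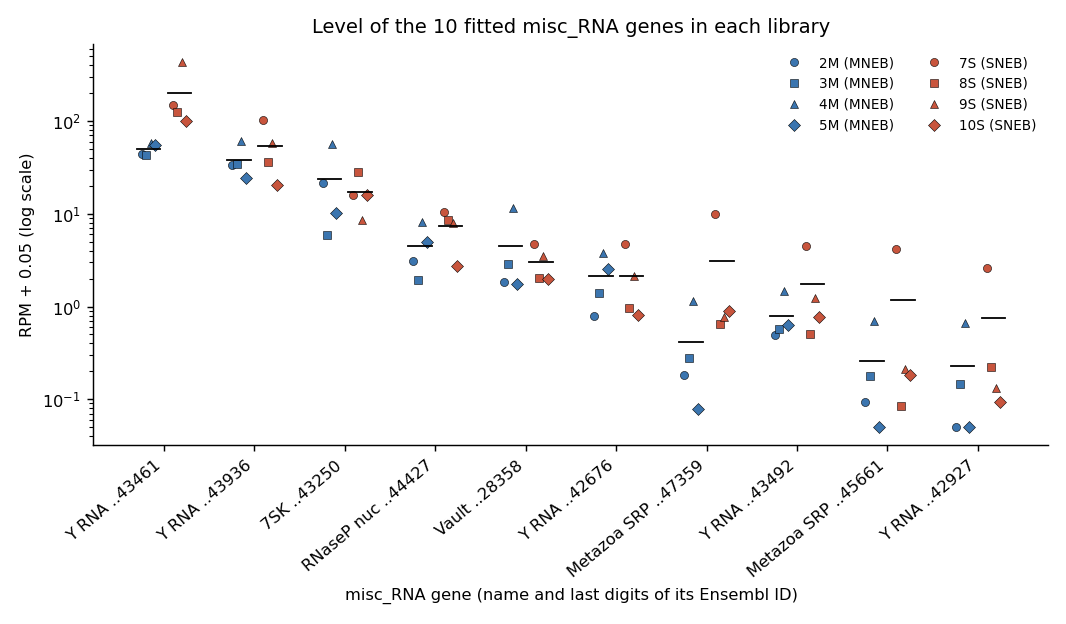
RPM plus 0.05 on a log axis (y axis) for the 10 fitted misc_RNA genes (x axis, name and last digits of the Ensembl ID) in each library (points, MNEB blue, SNEB red), with group means as lines. The leading Y RNA is the gene whose groups are apart (43.5 to 58.6 against 99.1 to 431 RPM), and library 7S is highest for 7 of the 10 genes.

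7SK varied widely within MNEB. Its leading gene ENSBTAG00000043250 stood at 21.2, 5.92, 56.3 and 10.2 RPM in 2M, 3M, 4M and 5M and at 15.9, 28.3, 8.55 and 15.7 RPM in 7S, 8S, 9S and 10S. The SNEB libraries lay within the range of the MNEB libraries. Means were 23.4 ± 22.9 RPM in MNEB and 17.1 ± 8.18 RPM in SNEB (SD, n = 4 each), and edgeR's quasi-likelihood test gave -0.52 on the log2 scale, with an interval from -1.71 to 0.68 (adjusted p = 0.781), and -0.08 with 2M in SNEB. The share of 7SK in the misc_RNA counts was 16.4% ± 9.67 in MNEB and 8.10% ± 5.64 in SNEB (SD, n = 4 each), with overlapping groups (two-sided exact permutation test, p = 0.2). Library 9S, with the most Y RNA reads, had the lowest 7SK level in SNEB.

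Vault RNA was highest in library 4M by RPM, and in library 3M by TMM-scaled RPM. ENSBTAG00000028358 stood at 1.80, 2.80, 11.5 and 1.71 RPM in 2M, 3M, 4M and 5M and at 4.63, 1.96, 3.48 and 1.91 RPM in 7S, 8S, 9S and 10S. These levels overlapped, and edgeR's quasi-likelihood test gave -0.74 ± 0.56 (standard error) on the log2 scale (adjusted p = 0.660), and -0.96 with 2M in SNEB. As a share of the misc_RNA counts, vault ranged from 1.69% to 5.59% in MNEB, and every SNEB library lay lower, down to 0.675% in 9S. The mean shares were 3.01% ± 1.83 in MNEB and 1.12% ± 0.368 in SNEB (SD, n = 4 each), a difference of -1.89 percentage points (two-sided exact permutation test, p = 0.0286, not adjusted for the 6 shares compared). With any 1 SNEB library left out the groups still did not overlap, and the exact permutation p was 0.114 or 0.143. With 2M in SNEB the difference was -2.22 percentage points (exact permutation p = 0.0179). The share has the Y RNA reads in its denominator, and with the leading Y RNA taken out of it the difference was -1.63 percentage points (two-sided exact permutation test, p = 0.286). The direction of the vault level itself turned without 4M on log2 of RPM, to 0.44.

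The RNase P gene ENSBTAG00000044427 stood at 3.03, 1.89, 8.07 and 4.95 RPM in 2M, 3M, 4M and 5M and at 10.3, 8.45, 7.82 and 2.71 RPM in 7S, 8S, 9S and 10S. The groups overlapped through 4M and 10S. In edgeR's quasi-likelihood test it was 0.52 ± 0.44 (standard error) higher in SNEB on the log2 scale (adjusted p = 0.710), and 0.38 with 2M in SNEB. The related RNase MRP, below the count needed for the fit, had 2 to 14 counts per library in MNEB and 2 to 19 in SNEB.

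The SRP genes owed most of their reads to library 7S. ENSBTAG00000047359 had 3, 7, 25 and 1 counts in 2M, 3M, 4M and 5M and 215, 17, 18 and 19 counts in 7S, 8S, 9S and 10S. In RPM this was 0.368 ± 0.484 in MNEB and 3.03 ± 4.61 in SNEB (SD, n = 4 each), and 4M, at 1.08 RPM, lay above 8S, 9S and 10S. On the log2 scale edgeR's quasi-likelihood test gave 2.83 ± 1.00 (standard error, adjusted p = 0.293), 0.96 without 7S (adjusted p = 0.794), and 2.37 with 2M in SNEB (adjusted p = 0.469). It was called higher in SNEB in the same test without scaling (edgeR, adjusted p = 0.00813), against 0.46% of all genes in that direction. In that fit the standard errors of the 10 genes were all 0.70 to 0.80, against 0.44 to 1.25 with TMM scaling. The spread of the single gene, with most of its counts in 7S, thus had little weight in that p. The second gene, ENSBTAG00000045661, had 90 counts in 7S and 0 to 15 in the other libraries, and its log2 fold change of 2.26 turned to -0.86 without 7S. With no filter on counts both genes were called, 2 of the 60 misc_RNA genes with reads, against 0.883% of all genes in that fit. A further SRP gene, ENSBTAG00000047789, had 24 of its 60 counts in 9S. Library 7S also had the highest snoRNA level of all libraries, 2653 RPM, and the highest snRNA level in SNEB, 18.9 RPM. Their part in the SRP result was not tested.

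The pieces of messenger RNA of proteins that bind these RNAs or work with their complexes were looked up as a list. Of 33 names searched, which include more than 1 name for Ro60, 30 were found in the table and 29 had reads. Only 6 reached the 80 counts of the fit, and 0 of these 6 passed in either direction. TROVE2, which encodes Ro60, stood at 0.425 ± 0.394 RPM in MNEB and 0.375 ± 0.105 RPM in SNEB, and differed by -0.19 ± 0.49 (standard error) on the log2 scale. CDK9 and HEXIM1, partners of 7SK, had -0.31 and -0.24, the major vault protein gene MVP had -0.31, and SRP68 and SRPR, of the signal recognition particle and its receptor, had -0.11 and 0.18. The most read, SRPR, stood at 1.87 ± 1.80 and 2.18 ± 0.405 RPM (SD, n = 4 each). None of these fragments was read at a level near that of the leading Y RNA.

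Markers of other cell types overlapped between the groups. All 5 leukocyte and Kupffer cell miRNAs, led by miR-142, were detected, and their summed level was 24.4 to 910 RPM in MNEB and 308 to 609 RPM in SNEB. The endothelial miR-126 was at 18.8 to 170 RPM in MNEB and 82.2 to 120 RPM in SNEB. The 3 red cell miRNAs were at 51.0 to 83.8 and 62.3 to 108 RPM, and the 4 stellate and smooth muscle miRNAs at 2295 to 12786 and 1805 to 2866 RPM. The last sum is nearly all miR-143, at 6145 RPM in MNEB and 2116 in SNEB. In the fit miR-143 was at -1.58 on the log2 scale and the other 3, miR-145, miR-214 and miR-199a-1, were at 0.65, 0.14 and 0.73, and none of the 4 passed. The study itself reported miR-143 as significantly lower in SNEB by sequencing, and also lower by RT-qPCR. It tested only miRNAs above 10 RPM, while the fit here was adjusted over 2827 genes of all biotypes. Of 5 muscle miRNA genes, which include miR-206, 4 had reads, with miR-1-1 at 0 in every library and a sum of 0.353 to 0.845 RPM in MNEB and 0.278 to 1.96 RPM in SNEB. In 9S, the library with the most Y RNA reads, the leukocyte list was at 609 RPM and the red cell list at 108 RPM, each the highest or level with the highest of the SNEB libraries. In 4M, the library with the most 7SK and vault reads, the stellate list, mostly miR-143, was at 12786 RPM and the leukocyte list at 910 RPM, both the highest of all libraries. The summed hepatocyte level was lowest in these same libraries, at 740847 RPM in 4M and 753601 RPM in 9S. The part of these cell types and of the hepatocyte level in the Y RNA, 7SK and vault values was not tested.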

How the data were processed

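Small RNA was read from the liver of 8 cows, 1 library per cow. The deposited values are raw counts per gene, made by the authors. Per the labels and the methods of the study, adaptors were trimmed with cutadapt 1.1, reads under 18 nucleotides were discarded, reads were checked with FastQC 0.10.0 and aligned with Novoalign 2.07.11 to the UMD3.1 assembly. HTSeq 0.5.3p3 then counted the reads with a unique alignment on Ensembl genes. The sources used here do not say whether counting used strand, so reads of a gene and of an overlapping or antisense gene cannot be told apart. The 3 lines that name no gene, a total and blank lines, were left out. Library 8S was read from a column headed 6S, whose letter in the table its label states. A table of mean counts over all libraries was not used. Of the 175 genes, 0 matched the RefSeq table by ID or name, so no positions are given.

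RPM and shares were computed with pandas 2.3.3 and numpy 2.4.6 in Python 3.11.15. SNEB was compared with MNEB by edgeR 4.0.16 in R 4.3.3 (quasi-likelihood test, TMM, at least 80 counts over 8 libraries, a mean of 10 per library). On simulated counts of all genes fitted, it recovered 2.99% of 2-fold, 58.2% of 4-fold and 77.3% of 8-fold changes. False calls made up 3.16% of its calls. A gene that was not called may therefore still differ between the groups. For sums, shares and single genes, exact permutation tests (two-sided, absolute difference of means) were used, on log2(RPM + 0.05) for levels. Exact p-values are printed for the leading Y RNA, for its ratio to the next and for shares of the misc_RNA counts. They are not printed for summed levels. The alternatives were other scalings and filters, DESeq2 1.42.0, limma 3.58.1 (voom), edgeR's exact test, other denominators and pseudocounts, library 2M in SNEB, the row with the most counts left out, and each library left out in turn. Dividing by snoRNA counts, summing genes of the same name, and the tests of the leading Y RNA level and of its ratio to the next were added after seeing the data. The genes named are every class, the 12 genes with the highest mean RPM, and the genes with the smallest p. Members, lists and rules were chosen with earlier results of these data known.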

Additional observations from a re-analysis of the deposited data

Results flagged for a closer look

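The 12 most read genes, the 5 main classes and the sum formed 36 groups of 4 libraries. In 12 of these groups 1 library stood far from the other 3. The rule used marks about 1 in 20 groups by chance only where values are normally distributed. It was applied to RPM without a log transform, and in all 12 groups the far library was the highest. The number of such groups therefore cannot be compared with chance. The classes and the sum hold the same reads as their genes, so these groups are not independent.

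In MNEB, library 4M was the far one 7 times. It stood at 11.5 RPM for the vault gene and for the vault class, 1.43 RPM for the Y RNA ENSBTAG00000043492, 0.607 RPM for the Y RNA ENSBTAG00000042927, 125 RPM for summed Y RNA, 2.52 RPM for summed Metazoa SRP and 206 RPM for all misc_RNA. The same library had the highest snRNA level, 33.1 RPM, and the highest level of protein-coding fragments, 9280 RPM.

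In SNEB, library 7S was the far one 4 times, at 9.95 RPM for Metazoa SRP ENSBTAG00000047359, 4.16 RPM for ENSBTAG00000045661, 14.9 RPM for summed Metazoa SRP and 2.54 RPM for the Y RNA ENSBTAG00000042927. Library 9S was the far one for the leading Y RNA ENSBTAG00000043461, at 431 RPM.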

How the results depend on the processing

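No paired analysis was possible because the groups share no replicate numbers. The count of misc_RNA genes called, 0, became 1 of 10 without scaling, where 0.46% of all genes were called higher in SNEB. It became 2 with no filter, of 60 genes with reads and against 0.883% of all genes in that fit. It stayed at 0 with each library left out, for which the share of all genes was not taken. The calls were the Metazoa SRP genes that rest on library 7S. The log2 fold change of the Y RNA ENSBTAG00000043936, -0.02, turned to 0.012 with upper quartile scaling, 0.51 without scaling, 0.18 with library sizes without miRNA reads, 0.056 over genes read in every library, 0.13 over genes above 10 RPM and 0.16 with no filter. It ranged from -0.35 to 0.50 with a library left out. It was 0.50 without 3M, 0.20 without 8S and 0.23 without 10S. That of the Y RNA ENSBTAG00000042676 turned to 0.011 without scaling and ranged from -0.85 to 0.046 with a library left out (above 0 without 3M and without 8S). The values with a library left out ran from -0.073 (without 7S) to 1.18 for ENSBTAG00000043492, from -0.86 (without 7S) to 3.33 for ENSBTAG00000045661 and from -0.69 (without 7S) to 3.41 for ENSBTAG00000042927.

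On log2 of RPM the class 7SK, at -0.06, turned to 0.16 with 2M in SNEB and ranged from -0.55 to 0.53 with a library left out, being 0.07 without 2M, 0.53 without 4M and 0.23 without 9S. Vault, at -0.18, ranged from -0.47 to 0.44, being 0.44 without 4M and 9.44e-04 without 10S. Among shares of the misc_RNA counts, vault passed an unadjusted p under 0.05 in all 8 libraries. It no longer did without the row with the most counts (-1.63 percentage points) or without any one SNEB library (-2.02 to -1.75, over all libraries left out -2.33 to -1.04). In the latter case the groups still did not overlap. RNase P turned to 1.79 percentage points without that row, Metazoa SRP ranged from -0.0241 without 7S to 1.45, and the leading Y RNA ranged from 16.4 to 28.3 percentage points, the latter passing without 7S. The summed misc_RNA level stayed higher in SNEB in 14 of 14 alternatives (log2 difference 0.32 to 1.42, main 1.14), as did summed Y RNA (0.34 to 1.62, main 1.32). Both low ends are the sums without the leading Y RNA. Of 366 values under alternatives 327 were counted as keeping their direction and side of the threshold. These include the Metazoa SRP genes in DESeq2, which gave them no p, and counts of called genes, which have no direction. With 1 read worth 0.0294 to 0.0463 RPM, genes of a few counts cannot be compared. The causes of these shifts were not tested.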
